A study of Homo sapiens with 12 samples.

Results

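NF-kB transcription factor subunits and their inhibitors were followed across 12 samples of L428 measured on Illumina HT-12 bead arrays. L428 is a cell line long in culture, grown from a Hodgkin lymphoma. The 10 genes were NFKB1, NFKB2, RELA, RELB, REL, NFKBIA, NFKBIB, NFKBIE, TNFAIP3 and BCL3, picked by symbol from the 14953 gene symbols with a detected probe. They had 15 of the 47227 probes on the array, and 14 of these were kept. A probe was kept when its signal passed the detection threshold (p under 0.05) on at least 3 of the 12 arrays, and all 14 were detected on all 12 arrays. The probe left out was one of 3 for NFKB2 and was detected on 0 of 12 arrays.

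There were 4 groups of 3 samples: L428 cells given 25 nM ixazomib for 24 h, L428 cells given 71.25 nM ixazomib for 24 h, L428 cells resistant to ixazomib, and control L428 cells. Ixazomib blocks the proteasome, and the column names of the signal table call it MLN2238, the active form of the drug. For resistant cells, neither a dose, nor the presence of drug at harvest, nor the number of lines derived is stated in the labels. The description of 1 sample titled 71.25 nM gives 25 nM, and that sample was kept under its title. Separate cultures are stated for 1 treatment alone, so p-values here measure the spread between these 12 samples, and that spread may be technical.

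NF-kB proteins are dimers that bind DNA and switch on genes of inflammation, survival and proliferation. NFKB1 and NFKB2 encode precursors that are trimmed to the DNA-binding subunits, and RELA, RELB and REL encode the subunits that carry a transactivation domain. NFKBIA, NFKBIB and NFKBIE encode the I-kappa-B proteins, which hold the dimers in the cytoplasm until they are phosphorylated, ubiquitinated and destroyed by the proteasome. BCL3 encodes an atypical, nuclear I-kappa-B protein that binds dimers already on DNA, and TNFAIP3 encodes a ubiquitin-editing enzyme that damps signalling to the kinase complex. Several of these genes are themselves switched on by NF-kB. Hodgkin lymphoma cells are known for NF-kB that is active without an outside signal, and L428 is known to make a defective I-kappa-B alpha protein.

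Promoter windows are shown for the genes whose brightest probe was called in a comparison of 2 groups and whose window holds the letters of the NF-kB consensus site. RefSeq (assembly GRCh38.p14) gave 13 windows of 300 bases, 250 before and 50 after a start site, for 8 of the 10 genes. The other two are RELB and NFKBIE. The NF-kB consensus site, searched on both strands with overlapping matches joined, occurred in 8 of these 13 windows and in 7 of the 8 genes. Over all genes of the promoter table it occurred in 2075 of 35116 windows, or 5.91%, and in 1937 of 27305 genes, or 7.09%. Neither of the 2 RELA windows held a match, and the matching windows of NFKB1 and NFKBIB, called in no such comparison, are not shown. The 5 windows below read 5′ to 3′ on the strand of the gene, and capitals mark each match.
NFKBIA: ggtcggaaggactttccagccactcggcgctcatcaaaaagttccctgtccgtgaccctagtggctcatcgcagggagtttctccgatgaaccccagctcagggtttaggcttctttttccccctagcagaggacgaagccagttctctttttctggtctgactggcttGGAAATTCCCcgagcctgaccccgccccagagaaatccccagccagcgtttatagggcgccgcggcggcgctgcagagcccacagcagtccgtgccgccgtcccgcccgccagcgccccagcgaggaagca
NFKB2: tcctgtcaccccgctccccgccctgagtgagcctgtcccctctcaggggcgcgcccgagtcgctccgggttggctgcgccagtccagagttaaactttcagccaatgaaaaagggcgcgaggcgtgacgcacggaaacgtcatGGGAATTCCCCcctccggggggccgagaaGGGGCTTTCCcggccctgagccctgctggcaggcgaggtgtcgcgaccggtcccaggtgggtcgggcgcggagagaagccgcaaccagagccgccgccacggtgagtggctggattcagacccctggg
BCL3: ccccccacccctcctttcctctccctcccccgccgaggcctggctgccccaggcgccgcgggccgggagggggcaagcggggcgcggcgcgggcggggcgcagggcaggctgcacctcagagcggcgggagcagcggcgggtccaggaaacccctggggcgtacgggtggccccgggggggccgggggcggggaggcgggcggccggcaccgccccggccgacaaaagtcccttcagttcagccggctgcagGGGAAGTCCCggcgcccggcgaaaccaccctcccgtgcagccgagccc
TNFAIP3: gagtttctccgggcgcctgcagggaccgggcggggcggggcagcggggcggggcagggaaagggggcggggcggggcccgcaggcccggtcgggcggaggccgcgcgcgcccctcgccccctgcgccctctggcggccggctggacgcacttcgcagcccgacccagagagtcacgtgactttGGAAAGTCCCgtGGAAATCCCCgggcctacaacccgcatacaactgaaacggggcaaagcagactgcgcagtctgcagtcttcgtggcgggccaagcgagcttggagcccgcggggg
REL: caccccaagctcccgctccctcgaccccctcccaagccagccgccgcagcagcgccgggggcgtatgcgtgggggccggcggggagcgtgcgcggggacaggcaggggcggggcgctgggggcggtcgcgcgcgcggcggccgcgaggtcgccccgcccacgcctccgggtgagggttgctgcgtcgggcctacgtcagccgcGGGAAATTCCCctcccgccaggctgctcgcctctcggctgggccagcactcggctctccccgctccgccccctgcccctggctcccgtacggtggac
The NFKBIA window is chr14:35404700-35404999 on the minus strand, and its match lies at positions -81 to -72 relative to the start site. The NFKB2 window, chr10:102394328-102394627 on the plus strand, is the second of 3 for this gene and holds 2 matched stretches, at -107 to -97 and at -78 to -69. The third NFKB2 window also held matches, at -176 to -167 and at -21 to -12 relative to its own start site, and is not shown. The BCL3 window is chr19:44748458-44748757 on the plus strand, with the match just downstream of the start site, at 3 to 12. The TNFAIP3 window is chr6:137867009-137867308 on the plus strand, with 2 matched stretches at -67 to -58 and -55 to -46. The REL window is chr2:60881324-60881623 on the plus strand, with 1 matched stretch of 11 bases at -47 to -37. A match describes the letters in the window, and binding of any factor was not measured.

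Signals were background corrected, taken to log2 and quantile normalized, and all levels below are on that log2 scale. A level belongs to its probe, so levels of different genes are not compared. Mean signal per array ran from 293.2 to 400.5, between 36.2% and 39.8% of probes were detected, and arrays of the same group correlated at 0.9898 to 0.9939 against 0.9503 to 0.9897 between groups. Of 7 markers of Hodgkin cells, 5 were detected on all 12 arrays, TNFRSF8 and CCL17 among them, CCL22 on 8 and CD274 on 4. Of 8 B cell markers, BLK and CD79A were detected on 12 arrays, MS4A1 and CD79B on 5, CD22 on 3, and the others, PAX5 and POU2AF1 among them, on 0. The T cell genes CD3D, CD3E and CD3G were detected on 0 arrays and CD2 on 4, while the myeloid genes LYZ and CSF1R were detected on 12, CD14 on 11 and ITGAM on 0. The summed signal of the Hodgkin markers was 31500 to 32500 at 25 nM, 18900 to 22200 at 71.25 nM, 25700 to 28500 in resistant cells and 33100 to 38400 in control cells. That of the B cell markers was 484 to 524 at 25 nM, 343 to 368 at 71.25 nM, 375 to 417 in resistant cells and 640 to 703 in control cells. The myeloid sum was 142 to 168, 141 to 177, 201 to 244 and 129 to 181 in the same order. These sums add linear signals, so the brightest genes weigh most. Mean log2 levels are given here only to show that weight. FSCN1 averaged 13.998 and CCL17 13.33, beside 9.69 for TNFRSF8, the next brightest Hodgkin marker. BLK averaged 8.09, beside 5.33 for CD79A, the next brightest B cell marker. A lower sum therefore need not be shared by the other genes of its list. TNFRSF8 did not follow the Hodgkin sum in resistant cells. It measured 10.00, 9.93 and 9.81 there and 9.71, 9.76 and 9.69 in control cells, a difference that was not called. The part of these sums in the results below was not tested. In bulk RNA, fewer cells with a transcript and less of it per cell cannot be told apart.

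**Figure D1:**
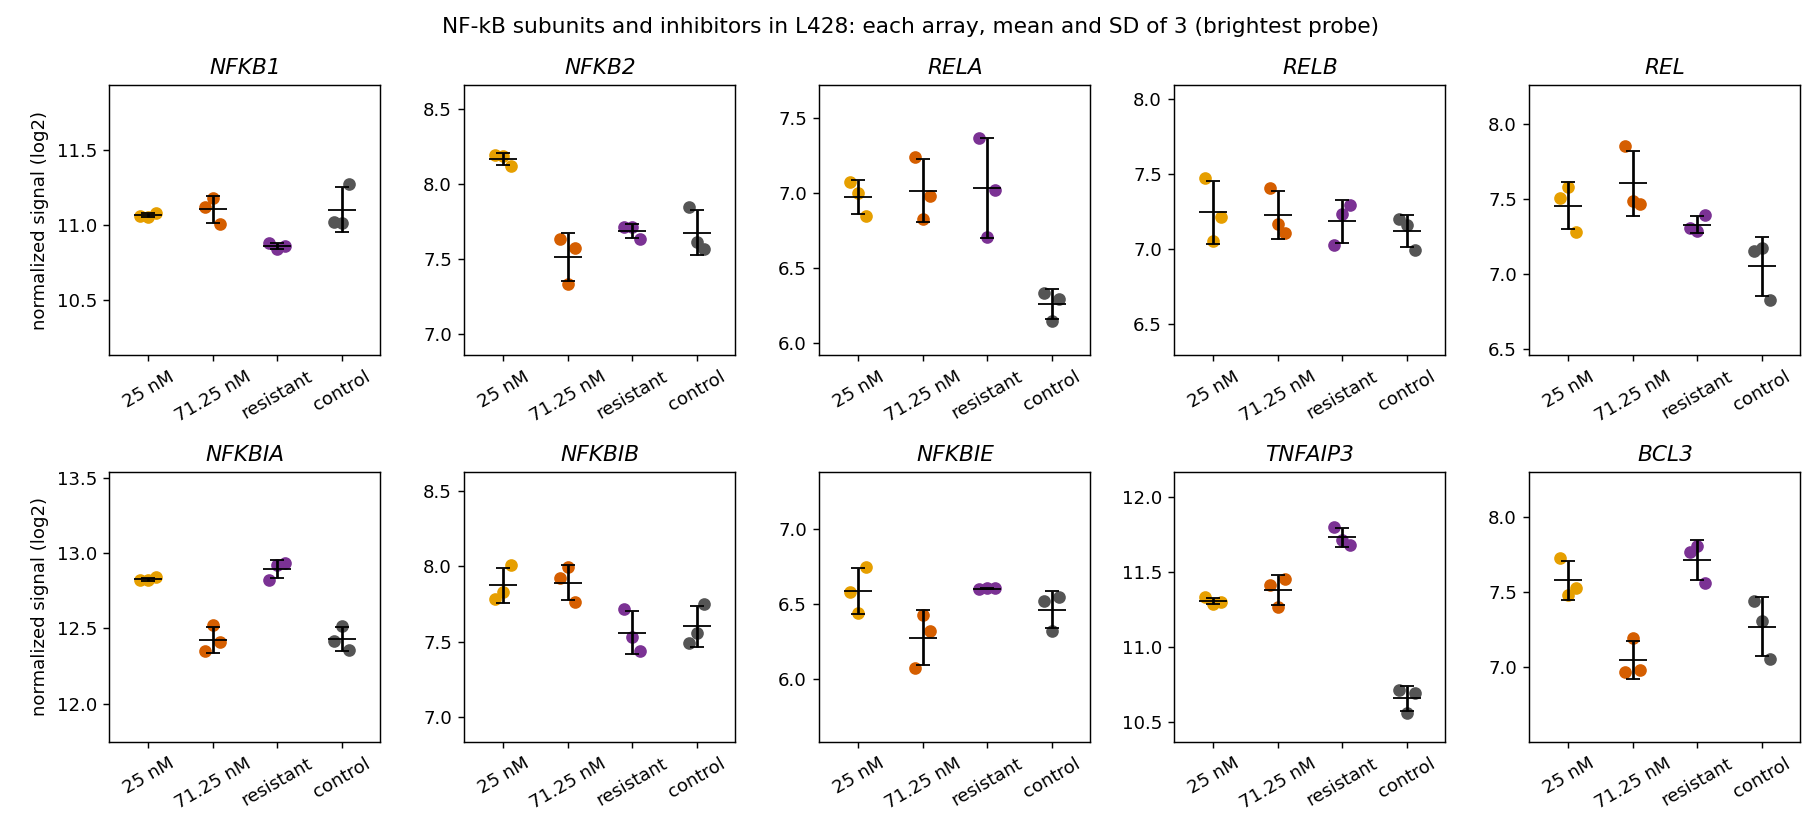
Levels of the 10 NF-kB genes on each array (y axis, log2 normalized signal of the brightest kept probe). Each point is 1 array, long ticks and error bars give the mean and SD of 3 arrays, and groups run from 25 nM through 71.25 nM and resistant cells to control cells. TNFAIP3 and RELA sit above all control arrays in every other group, while NFKBIA is high at 25 nM and in resistant cells and at the control level at 71.25 nM.

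Of the subunits with a transactivation domain, RELA was higher in all 3 groups than in control cells. RELA measured 7.07, 6.997 and 6.85 at 25 nM, 7.24, 6.82 and 6.98 at 71.25 nM, 7.37, 6.71 and 7.02 in resistant cells, and 6.34, 6.14 and 6.30 in control cells. The lowest of the 9 arrays outside control lay above the highest control array, while the 3 other groups overlapped each other. Relative to control, RELA rose by 0.71 at 25 nM (SE 0.16, limma adjusted p = 0.00432), by 0.76 at 71.25 nM (adjusted p = 0.0017) and by 0.77 in resistant cells (adjusted p = 0.00104), or 1.64-, 1.69- and 1.71-fold. The difference between the doses was 0.04, with a 95% interval of -0.29 to 0.38. The size of the RELA rise depends on background correction: without it the differences were 0.39, 0.42 and 0.43, and all 3 still passed.

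REL, the subunit often gained in copy number in Hodgkin lymphoma, had its highest mean at 71.25 nM. Its brightest probe measured 7.51, 7.58 and 7.28 at 25 nM, 7.86, 7.49 and 7.47 at 71.25 nM, 7.31, 7.29 and 7.39 in resistant cells, and 7.16, 7.18 and 6.82 in control cells. All 9 arrays of the other groups lay above the control arrays. The rise over control was 0.55 at 71.25 nM (SE 0.14, adjusted p = 0.00541) and 0.40 at 25 nM (adjusted p = 0.0427), and the difference of 0.28 in resistant cells did not pass (adjusted p = 0.115). The 25 nM call was near the threshold and was made in 13 of 24 alternative analyses, with differences from 0.26 to 0.52. The second REL probe rose at 71.25 nM as well, by 0.41 (adjusted p = 0.0148), but its difference was 0.22 at 25 nM (adjusted p = 0.195) and -0.06 in resistant cells (adjusted p = 0.703). In resistant cells this probe was lower than at 71.25 nM (difference -0.47, adjusted p = 0.0117), where the brightest probe had -0.27 (adjusted p = 0.179).

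RELB, the partner of the NFKB2 product in the noncanonical pathway, passed in no comparison. It measured 7.47, 7.05 and 7.21 at 25 nM, 7.41, 7.17 and 7.11 at 71.25 nM, 7.03, 7.23 and 7.30 in resistant cells, and 7.20, 7.16 and 6.999 in control cells. All 4 groups overlapped. The 95% interval of the difference from control was -0.15 to 0.41 at 25 nM, -0.17 to 0.39 at 71.25 nM and -0.21 to 0.34 in resistant cells.

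Of the genes for precursors, NFKB2 was called in 2 comparisons and NFKB1 in none. NFKB2 measured 8.19, 8.18 and 8.12 at 25 nM, 7.63, 7.34 and 7.57 at 71.25 nM, 7.71, 7.71 and 7.64 in resistant cells, and 7.85, 7.61 and 7.57 in control cells. The 25 nM arrays were the 3 highest of the 12, and the other groups lay close together. NFKB2 rose by 0.49 at 25 nM against control (SE 0.11, adjusted p = 0.00486) and was lower at 71.25 nM than at 25 nM (difference -0.65, adjusted p = 0.00431). Against control the differences were -0.16 at 71.25 nM (adjusted p = 0.285) and 0.01 in resistant cells (adjusted p = 0.938). The second kept NFKB2 probe had the same 2 calls, with 0.46 at 25 nM against control and -0.53 between doses, and was also higher in resistant cells than at 71.25 nM (0.32, adjusted p = 0.0399). That last call was lost in 11 alternatives, median scaling (0.12, adjusted p = 0.646) and housekeeping scaling (0.26, adjusted p = 0.0935) among them, and without control array 1, 25 nM array 4 or 5, 71.25 nM array 7, 8 or 9, or resistant array 10 or 11 (adjusted p from 0.0511 to 0.151). In resistant cells that probe stood at 7.91, 7.78 and 7.62 against 7.55, 7.54 and 7.45 in control cells, a difference of 0.25 that did not pass (adjusted p = 0.058). Both NFKB2 calls of the brightest probe were made in all 24 alternative analyses.

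NFKB1 measured 11.06, 11.06 and 11.08 at 25 nM, 11.12, 11.18 and 11.01 at 71.25 nM, 10.88, 10.84 and 10.86 in resistant cells, and 11.02, 11.01 and 11.27 in control cells. The 3 resistant arrays were the lowest of the 12, but the difference of -0.24 from control did not pass (SE 0.10, adjusted p = 0.0649). It passed in 8 of 24 alternative analyses, with differences from -0.60 to -0.16.

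Among the inhibitors, NFKBIA, which encodes I-kappa-B alpha, was higher at 25 nM and in resistant cells than in control cells, and at the control level at 71.25 nM. It measured 12.82, 12.82 and 12.84 at 25 nM, 12.35, 12.52 and 12.41 at 71.25 nM, 12.82, 12.93 and 12.93 in resistant cells, and 12.42, 12.52 and 12.36 in control cells. The 6 arrays of the 25 nM and resistant groups all lay above the 6 arrays of the 71.25 nM and control groups. NFKBIA rose by 0.40 at 25 nM (SE 0.09, adjusted p = 0.00677) and by 0.46 in resistant cells (adjusted p = 0.00101), while the difference at 71.25 nM was -0.00 with a 95% interval of -0.21 to 0.20. It was lower at 71.25 nM than at 25 nM (difference -0.40, adjusted p = 0.0252) and higher in resistant cells than at 71.25 nM (0.47, adjusted p = 0.0028).

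The NFKBIA result in resistant cells rests on how arrays are scaled to each other. Before normalization its signals were 5808, 6556 and 7120 in resistant cells and 7130, 7115 and 5497 in control cells, which overlap, and the resistant arrays had the lowest mean signals apart from 1 array at 25 nM. Median scaling sets each array by the median of all its probes. Between 36.2% and 39.8% of probes were detected per array, so that median falls among undetected probes. With this scaling the difference from control was 0.06 in resistant cells (adjusted p = 0.818) and 0.23 at 25 nM (adjusted p = 0.343). The median of all genes moved by -0.14 and -0.01 in these comparisons. With quantile normalization, cyclic loess or housekeeping scaling, and in the authors' processed values, both calls were made.

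NFKBIB encodes I-kappa-B beta. Its brightest probe measured 7.78, 7.83 and 8.01 at 25 nM, 7.92, 7.99 and 7.76 at 71.25 nM, 7.71, 7.53 and 7.43 in resistant cells, and 7.49, 7.56 and 7.75 in control cells. Both doses lay above control on every array, by a narrow margin, and resistant cells overlapped control. The differences of 0.27 at 25 nM (adjusted p = 0.106) and 0.29 at 71.25 nM (adjusted p = 0.0651) did not pass. The 3 NFKBIB probes disagreed: a second rose by 0.56 at 25 nM (adjusted p = 0.00952) and by 0.70 at 71.25 nM (adjusted p = 0.00124), with 0.20 in resistant cells (adjusted p = 0.281), where it was lower than at 71.25 nM (difference -0.51, adjusted p = 0.0192). The remaining probe rose by 0.45 at 71.25 nM (adjusted p = 0.0337) and by 0.45 in resistant cells (adjusted p = 0.0279), though 1 control array of this probe, at 7.29, overlapped both groups.

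NFKBIE, which encodes I-kappa-B epsilon, passed in no comparison. It measured 6.58, 6.44 and 6.74 at 25 nM, 6.07, 6.43 and 6.32 at 71.25 nM, 6.60, 6.60 and 6.60 in resistant cells, and 6.52, 6.32 and 6.55 in control cells. The 71.25 nM arrays lay below those at 25 nM and in resistant cells, with differences of -0.31 for 71.25 nM minus 25 nM (adjusted p = 0.149) and 0.33 for resistant minus 71.25 nM (adjusted p = 0.0682).

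**Figure D2:**
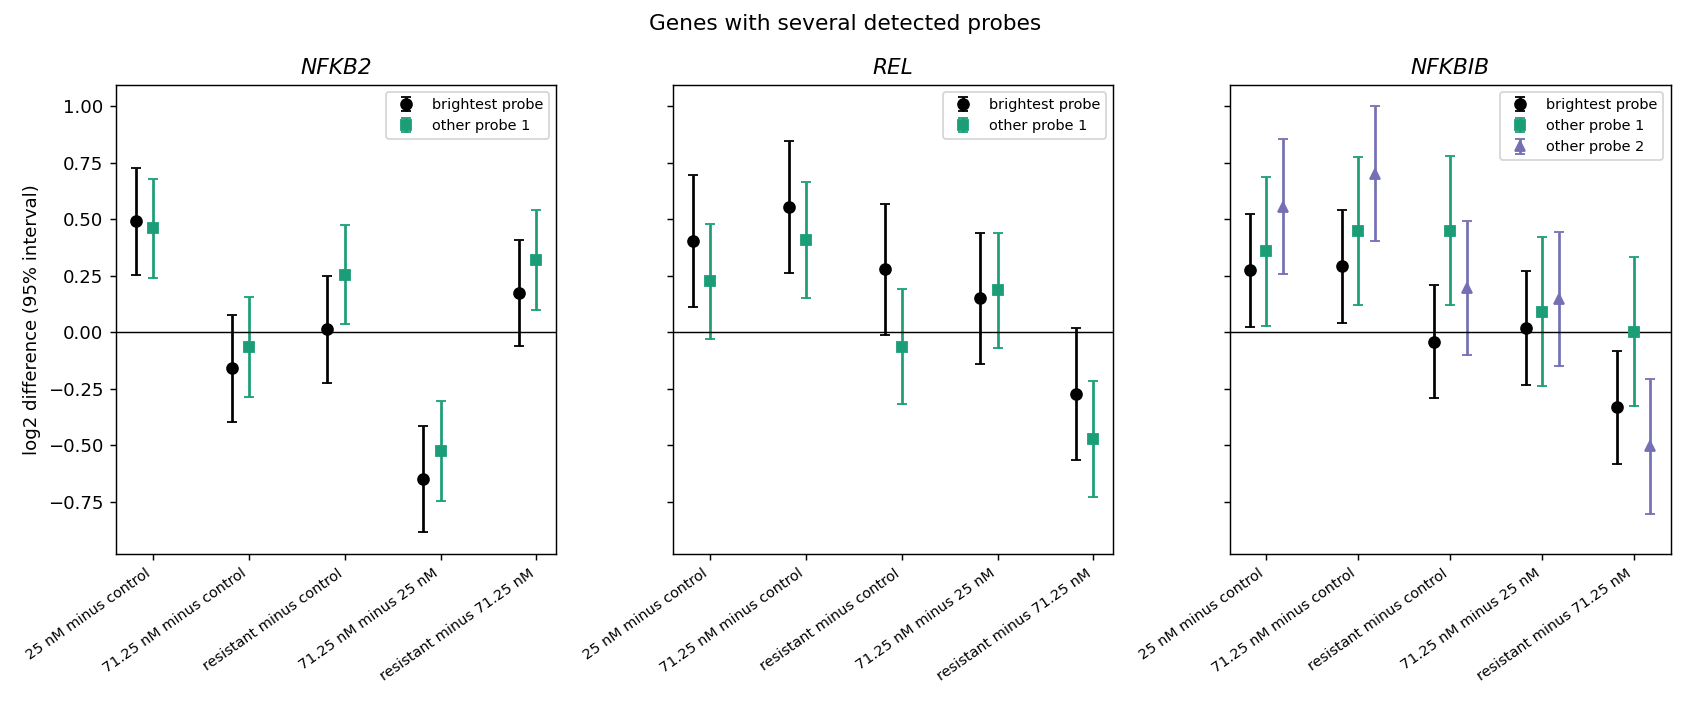
Log2 differences with 95% intervals (y axis) for each kept probe of NFKB2, REL and NFKBIB in the 5 comparisons (x axis). The 2 NFKB2 probes lie close together at 25 nM and between doses, while the 3 NFKBIB probes spread from -0.04 to 0.45 in resistant cells against control.

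BCL3 followed the order of NFKBIA. It measured 7.73, 7.48 and 7.53 at 25 nM, 6.97, 7.20 and 6.98 at 71.25 nM, 7.77, 7.81 and 7.56 in resistant cells, and 7.44, 7.31 and 7.06 in control cells. The resistant and 25 nM arrays lay above all control arrays, and the 71.25 nM arrays overlapped control at its lower end. BCL3 rose by 0.44 in resistant cells against control (SE 0.13, adjusted p = 0.0106), and the 0.31 at 25 nM did not pass (adjusted p = 0.0923). It was lower at 71.25 nM than at 25 nM (difference -0.53, adjusted p = 0.0279) and higher in resistant cells than at 71.25 nM (0.66, adjusted p = 0.00199). The call in resistant cells against control was lost with median scaling, at 0.22 (adjusted p = 0.341), and without control array 3 (adjusted p = 0.0501).

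TNFAIP3 showed the largest difference of the 10 genes, in resistant cells. It measured 11.33, 11.29 and 11.30 at 25 nM, 11.42, 11.27 and 11.46 at 71.25 nM, 11.80, 11.71 and 11.68 in resistant cells, and 10.72, 10.56 and 10.70 in control cells. The resistant arrays were the 3 highest, both doses lay together in the middle, and the control arrays were the 3 lowest, with clear gaps between these tiers. Relative to control, TNFAIP3 rose 1.57-fold at 25 nM (0.65, SE 0.10, adjusted p = 0.000254), 1.65-fold at 71.25 nM (0.72, adjusted p = 5e-05) and 2.1-fold in resistant cells (1.07, adjusted p = 7.52e-07). All 3 calls were made in all 24 alternative analyses. Between the doses the difference was 0.07, with a 95% interval of -0.14 to 0.28, and resistant cells exceeded 71.25 nM by 0.35 (adjusted p = 0.0179). This last call was made in 20 of 24 alternatives, and with median scaling the difference was 0.18 (adjusted p = 0.458).

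**Figure D3:**
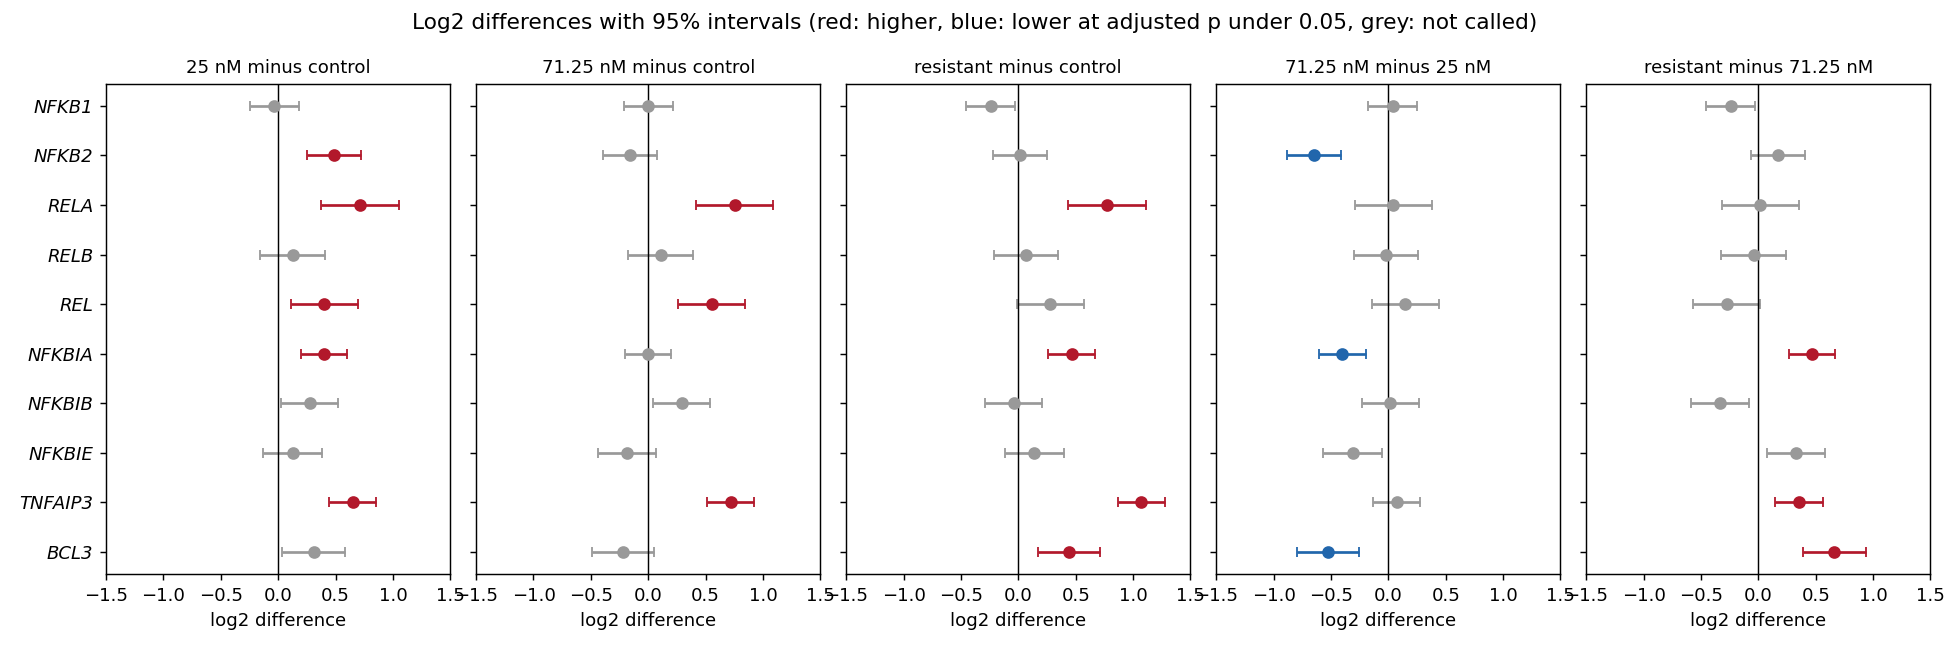
Log2 differences of the 10 NF-kB genes with 95% intervals, in the 5 comparisons. The intervals of TNFAIP3 and RELA lie to the right of 0 in all 3 comparisons with control. Those of NFKB2, NFKBIA, BCL3 and NFKBIE lie to the left of 0 for 71.25 nM minus 25 nM, where NFKBIE was not called.

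Taking each comparison as a whole, 5 of the 10 genes rose at 25 nM against control and 0 fell: NFKB2, RELA, REL, NFKBIA and TNFAIP3. Over all 14953 genes 27.0% were called in this comparison, 13.3% upward and 13.7% downward. The median difference of the 10 was 0.35, beside -0.00 for all genes. The 2 groups did not overlap for 7 of the 10 genes, against 42.0% of all genes. Exact permutation of 3 samples against 3 cannot give a two-sided p below 0.1, so calls rest on limma's model of all probes.

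At 71.25 nM against control 3 of the 10 rose, RELA, REL and TNFAIP3, and 0 fell. The background was 39.1% of genes called, 19.4% upward and 19.6% downward, so 3 of 10 lies near it. Their median difference was 0.05, beside -0.01 for all genes, and 4 of 10 did not overlap, against 48.1% of all genes.

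In resistant cells against control 4 of the 10 rose, RELA, NFKBIA, TNFAIP3 and BCL3, and 0 fell. Here 47.1% of all genes were called, 23.0% upward and 24.1% downward, so the count is near the background. Their median difference was 0.21, beside -0.02, and 7 of 10 did not overlap, against 53.8%.

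The doses were also compared with each other, at the same 24 h. At 71.25 nM 3 of the 10 were lower than at 25 nM, NFKB2, NFKBIA and BCL3, and 0 were higher, where 5.87% of all genes were called, 2.98% upward and 2.88% downward. The groups did not overlap for 4 of 10 genes, against 29.2%. NFKB2 is the only one of the 3 whose call was made in all 24 alternative analyses. NFKBIA was called in 16 and BCL3 in 17, and leaving out single arrays of either dose (25 nM array 4, 5 or 6, or 71.25 nM array 7 or 9) reduced the count to 1. The differences themselves kept their sign, from -0.46 to -0.36 for NFKBIA and from -0.60 to -0.35 for BCL3.

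Between resistant cells and 71.25 nM, 3 of the 10 were higher in resistant cells, NFKBIA, TNFAIP3 and BCL3, and 0 were lower, where 21.6% of all genes were called, 11.3% upward and 10.3% downward. The groups did not overlap for 8 of 10 genes, against 37.9%. This comparison, like that between the doses, shares the 71.25 nM arrays, so the low 71.25 nM values of NFKBIA and BCL3 enter both. With median scaling the 3 calls were lost, at 0.28 for NFKBIA (adjusted p = 0.237), 0.18 for TNFAIP3 and 0.46 for BCL3 (adjusted p = 0.0618), and NFKB1 and NFKBIB were called lower, at -0.45 (adjusted p = 0.0422) and -0.52 (adjusted p = 0.0151). NFKBIB was called lower in 11 of 24 alternatives and NFKB1 in 6, beside -0.33 (adjusted p = 0.0585) and -0.24 (adjusted p = 0.107) here. Across all 4 groups a moderated F test called 7 of the 10, all but NFKB1, RELB and NFKBIE, where 52.7% of all genes were called. The one-way test that the series text names called 6 of the 10 and 48.0% of all genes.

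The other genes of the pathway were taken as 6 lists, in the order of the signal, and their counts stand beside the shares of all genes given above. Of 12 receptors that signal to NF-kB only 4 had a detected probe. Against control 0 of these 4 were called at either dose, and 2 were called higher in resistant cells, CD40 and TNFRSF1B. CD40, a receptor of the tumour necrosis factor family that B cells use for T cell help, averaged 9.73 in resistant cells and 8.53 in control cells, a rise of 1.19 (adjusted p = 4.82e-06), and was 0.89 above 71.25 nM (adjusted p = 0.000254). TNFRSF1B was detected on the 3 resistant arrays, on 1 array at 71.25 nM and on 0 arrays at 25 nM or in control cells. It was measured only because of the resistant arrays, so its call follows from the filter and says nothing more. TNFRSF8, the Hodgkin marker, was 0.46 higher in resistant cells than at 71.25 nM (adjusted p = 0.00998).

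Of 20 adaptors and ubiquitin ligases, 6 rose and 1 fell at 25 nM against control, 7 rose and 5 fell at 71.25 nM, and 10 rose and 2 fell in resistant cells. TANK, which binds TRAF proteins and the TBK1 kinase, rose by 0.76 in cells given 25 nM, 0.76 in cells given 71.25 nM and 1.40 in resistant cells (adjusted p = 2.98e-07). A second TANK probe had 0.24 at 25 nM, which did not pass (adjusted p = 0.119), and rose by 0.47 and 0.85 in the other comparisons. TRAF1 rose by 0.74 at 25 nM (adjusted p = 0.000433), by 0.47 at 71.25 nM (adjusted p = 0.00602) and by 0.92 in resistant cells. RIPK2, the kinase adaptor of NOD receptors, rose by 0.47 at 71.25 nM (adjusted p = 0.0129) and by 1.04 in resistant cells (adjusted p = 2.25e-05), with 0.18 at 25 nM (adjusted p = 0.362). BIRC3, a ubiquitin ligase that NF-kB switches on, was lower at 71.25 nM than in control cells (difference -0.53, adjusted p = 0.00117) and lower than at 25 nM (difference -0.55, adjusted p = 0.00837). It was higher in resistant cells than at 71.25 nM by 1.04 (adjusted p = 1.09e-05). A second BIRC3 probe was called in the same direction in these 3 comparisons, and the dimmest of the 3 BIRC3 probes in none of them.

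Of 12 kinases, 4 rose and 0 fell at 25 nM, 5 rose and 2 fell at 71.25 nM, and 4 rose and 1 fell in resistant cells. In these comparisons with control 27.0%, 39.1% and 47.1% of all genes were called. MAP3K14, the kinase that starts noncanonical processing of the NFKB2 precursor and is itself degraded by the proteasome, averaged 7.87 at 25 nM, 7.85 at 71.25 nM, 8.06 in resistant cells and 7.45 in control cells. It rose in all 3 comparisons with control, by 0.43 (adjusted p = 0.0275), 0.41 (adjusted p = 0.0246) and 0.61 (adjusted p = 0.00159). IKBKG, the regulatory subunit of the I-kappa-B kinase complex, rose by 0.40 at 25 nM (adjusted p = 0.0284), by 0.43 at 71.25 nM (adjusted p = 0.0133) and by 0.53 in resistant cells (adjusted p = 0.00279). IKBKB, its catalytic subunit, fell by 0.50 at 71.25 nM (adjusted p = 0.0086) and by 0.72 in resistant cells (adjusted p = 0.000485), with -0.35 at 25 nM (adjusted p = 0.0666). The related kinase gene IKBKE averaged 5.57 at 71.25 nM and 6.54 in control cells (difference -0.98, adjusted p = 0.000115), and was 0.65 higher in resistant cells than at 71.25 nM (adjusted p = 0.00532).

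The ubiquitin ligase that marks phosphorylated I-kappa-B proteins was listed together with enzymes and factors that act with it. Of these 12 genes 10 were measured, and BTRC and UBE2D1 had no kept probe. At 25 nM 2 rose, at 71.25 nM 3 rose and 1 fell, and in resistant cells 5 rose and 1 fell, where 27.0%, 39.1% and 47.1% of all genes were called. CDC34, a ubiquitin-conjugating enzyme, rose by 0.69 with 25 nM, 0.78 with 71.25 nM and 0.68 in resistant cells (adjusted p = 8.93e-05). UBE2M, the enzyme that attaches NEDD8 to cullins, rose by 0.63, 0.54 and 0.50 in the same comparisons. RBX1, the ring subunit of the ligase, fell by 0.30 at 71.25 nM (adjusted p = 0.0249).

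The next list held negative regulators and atypical I-kappa-B proteins other than the 10 genes, with 13 measured. At 25 nM 5 rose and 1 fell, at 71.25 nM 4 rose and 1 fell, and in resistant cells 7 rose and 0 fell. Of all genes 27.0%, 39.1% and 47.1% were called in these comparisons. NFKBIZ, like BCL3 an atypical nuclear I-kappa-B protein, averaged 7.42 at 25 nM, 8.57 at 71.25 nM, 7.95 in resistant cells and 6.64 in control cells. Unlike BCL3, it was highest at 71.25 nM, 1.15 above 25 nM (adjusted p = 0.000126) and, as resistant minus 71.25 nM, differed by -0.63 (adjusted p = 0.00221). TAX1BP1, which carries the TNFAIP3 product to its substrates, rose by 0.82 with 25 nM, 1.07 with 71.25 nM and 1.00 in resistant cells (adjusted p = 5.11e-05). FAM105B, the older symbol of a deubiquitinase of linear chains, rose by 0.47, 0.75 and 1.15 in the same comparisons. TNIP3, a partner of the TNFAIP3 product, was lower at 25 nM, where 2 of 3 arrays detected it (difference -1.03, adjusted p = 0.00315), and at 71.25 nM (difference -0.99, adjusted p = 0.00262).

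Of 34 known NF-kB targets 31 were measured. Against control 13 rose and 5 fell at 25 nM, 14 rose and 10 fell at 71.25 nM, and 18 rose and 5 fell in resistant cells, with median differences of 0.30, 0.16 and 0.58. IL8, a neutrophil chemokine, averaged 9.56 at 25 nM, 9.83 at 71.25 nM, 12.09 in resistant cells and 6.42 in control cells, which is 8.79-, 10.6- and 50.8-fold over control (adjusted p = 7.34e-10, 4.46e-11 and 1.52e-13). A second IL8 probe was also called in all 3, with smaller rises of 1.75, 2.13 and 4.93. IL6 rose by 1.94, 2.85 and 3.36 in the same comparisons. CCL3 rose by 2.31, 3.68 and 4.42, but near-identical gene copies may bind the same probe, so which copy this measures is uncertain. CSF2, a myeloid growth factor, rose by 1.64, 1.14 and 2.23, TNF by 1.47, 2.21 and 2.61, and IRF1 by 1.03, 1.405 and 2.87, each in the same order.

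Between the doses the targets split. Of the 31, 4 were higher and 9 lower at 71.25 nM than at 25 nM, a median difference of -0.16. The cytokine genes CCL3, IL6 and TNF were higher at 71.25 nM, by 1.37, 0.91 and 0.74. The cytokine gene CSF2 went the other way, with 12.42, 12.42 and 12.37 at 25 nM and 11.85, 11.93 and 11.96 at 71.25 nM. BCL2L1, which protects cells from apoptosis, was lower (difference -0.87, adjusted p = 0.000134), in the direction of NFKBIA, NFKB2 and BCL3. Leaving out 1 array reduced the 13 target calls to as few as 6, without 71.25 nM array 7. In resistant cells 21 of the 31 were higher than at 71.25 nM and 1 lower, with a median of 0.67. CXCL10 was 2.25 higher, and the adhesion molecule genes ICAM1 and VCAM1 were 1.63 and 1.55 higher. At 71.25 nM the signals before normalization of CXCL10 (120, 123 and 136) and VCAM1 (111, 115 and 121) were near the detection floor. VCAM1 had detection p-values of 0.0351, 0.0325 and 0.00519 there. The sizes of the CXCL10 and VCAM1 differences from 71.25 nM are therefore uncertain. Against control VCAM1 was lower at 25 nM (difference -0.51) and at 71.25 nM (difference -1.20), with 0.35 in resistant cells (adjusted p = 0.0616). A second, dimmer VCAM1 probe had 0.39 for resistant minus 71.25 nM and did not pass (adjusted p = 0.134).

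**Figure D4:**
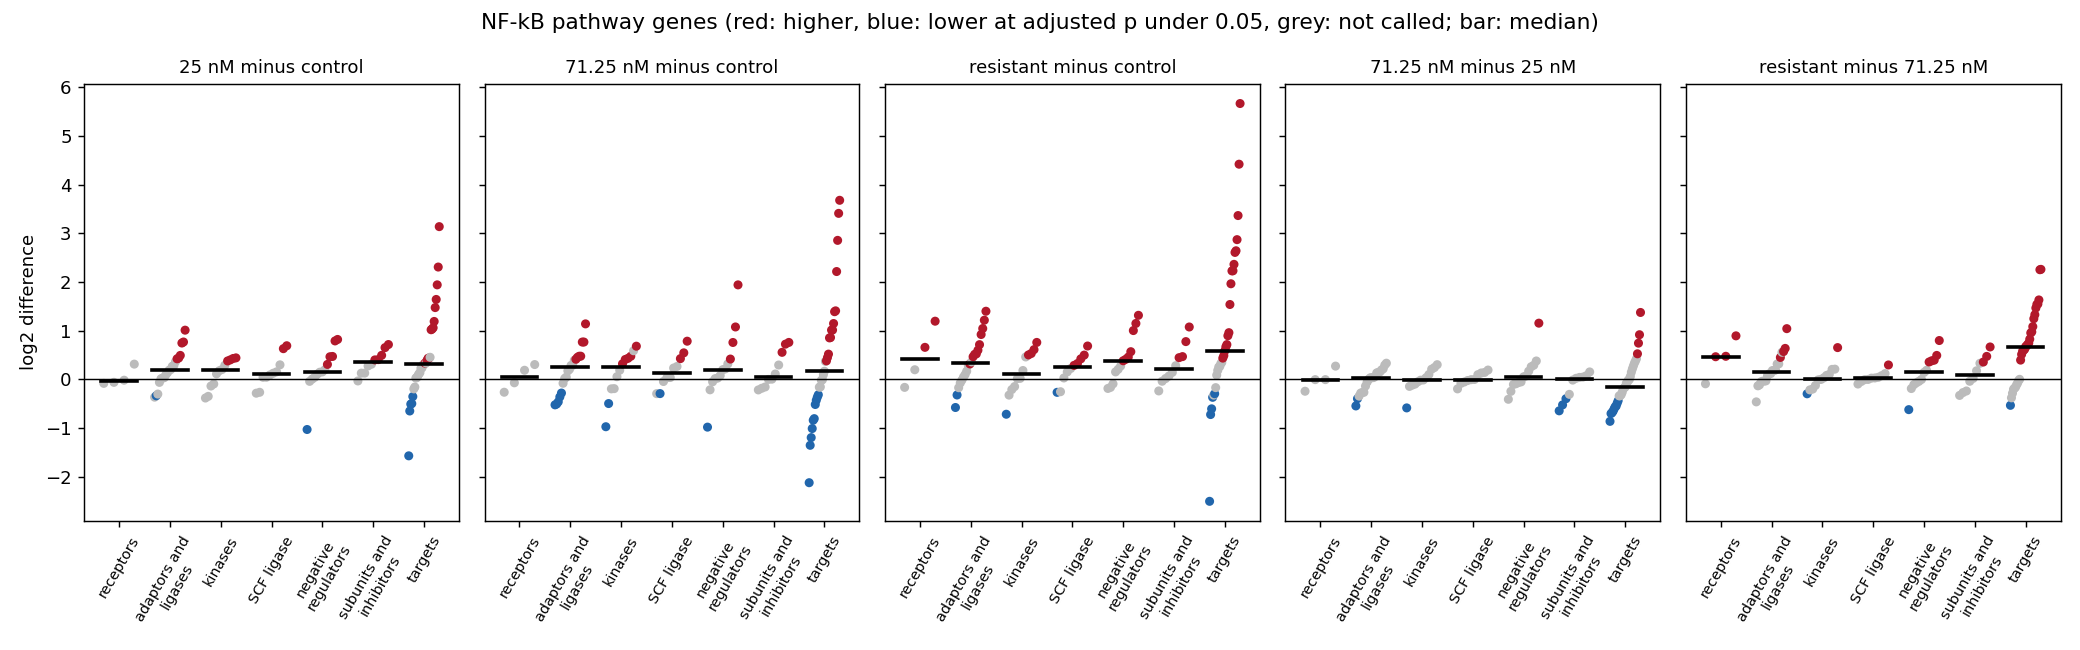
Measured genes of each pathway list in each comparison. By number of calls, 67.7% of the measured NF-kB targets were higher in resistant cells than at 71.25 nM, against 11.3% of all genes.

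Among the 10 genes themselves, levels over the 12 samples correlated most between NFKBIA and BCL3 (Pearson 0.87), RELA and TNFAIP3 (0.86), and RELA and REL (0.73). These are descriptions over 12 samples that fall into 4 groups and share their normalization. Over all genes, the level of TNFAIP3 was most like those of C15orf57 (0.990), SERTAD1 (0.990) and EIF4E3 (0.989). NFKBIA was most like DBNL (0.946), LTA (0.930) and NDRG4 (0.922). BCL3 was most like LOC100133232 (0.940), and NFKB2 was most like MAPK12 (0.862).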

How the data were processed

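Total RNA of 12 L428 samples was measured on Illumina HT-12 arrays. The deposited signal table holds linear bead intensity values with detection p-values, neither background subtracted nor normalized, as the deposited values show. The authors' processed intensity values were, per the labels' series text, corrected through housekeeping genes and quantile normalized. Groups came from titles; signal columns carry a group and an array number not tied to a replicate. Signals were corrected with normexp (offset 16, negative controls inferred from detection p-values), taken to log2 and quantile normalized in limma 3.58.1 (R 4.3.3). Probes detected on at least 3 arrays were kept (20414). The brightest kept probe stood for a gene. One mean per group was fitted to 12 arrays (8 residual, 5.54 prior degrees of freedom), and Benjamini-Hochberg adjustment ran over all kept probes at 0.05. The fit was tested on simulated data. The genes, lists and alternatives were chosen with earlier results of these data known. Pathway genes were named from the up to 4 per list and comparison with the largest called differences. Not all of these were named. TICAM1, the adaptor with the largest difference from control at 25 nM (1.01) and at 71.25 nM (1.14), was left out. So was MAP3K8, the kinase with the largest difference from control at 25 nM (0.44) and in resistant cells (0.76). TRAF6, TBK1 and UBE2D3 were also among those left out. The number of arrays limits precision: the median SE of a difference was 0.14. Alternatives covered scaling, background, filter, probe, model, values and single arrays.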

Additional observations from a re-analysis of the deposited data

How the results depend on the processing

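Over 24 alternative analyses the 3 RELA and 3 TNFAIP3 calls against control, REL at 71.25 nM and both NFKB2 calls were each made every time. Of 1660 differences of single probes recomputed, 1486 kept direction and side of the threshold, 69 lost a call, 57 gained one, 0 called ones reversed and 48 uncalled ones changed sign. With median scaling 3 genes were called at 25 nM against control in place of 5, where all genes called went from 4037 to 2919. Between doses median scaling gave 1 in place of 3, where all genes called went from 877 to 400. Housekeeping scaling also gave 1 between doses, with 688 of all genes called. In resistant cells against 71.25 nM 5 genes were called in place of 3 without background correction, with an offset of 50, with detection on all 12 arrays, with the mean of the probes, with a trended robust prior, and in the authors' values with or without a replicate block. These were 3 higher and 2 lower, but 4 higher and 1 lower with detection on all 12 arrays. All genes called in that comparison numbered 3223 in the main analysis and 3915 without background correction. They numbered 3813 with an offset of 50 and 3914 in the authors' values. Without single arrays the counts against control ran from 4 to 5 for 25 nM, 3 to 4 for 71.25 nM and 3 to 4 for resistant cells, with 1 to 3 between doses, 3 to 4 in resistant cells against 71.25 nM, and 6 to 7 across the 4 groups. NEDD8 in resistant cells against control reversed with median scaling, at -0.10 (adjusted p = 0.646). The causes were not tested.

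Median scaling moved the median of all genes by -0.14 in resistant cells against control and -0.13 against 71.25 nM, and housekeeping scaling by 0.14 for 71.25 nM and 0.17 for resistant cells against control. The share of called genes that were higher in resistant cells than in control cells was 30.5% with median and 62.1% with housekeeping scaling, beside 48.8%; at 71.25 nM against control housekeeping scaling gave 65.7% beside 49.7%, at 25 nM 64.7% beside 49.4% and between doses 63.8% beside 50.9%. In resistant cells against 71.25 nM median scaling gave 27% beside 52.4%. All genes called between doses numbered 877, 400 with median scaling, 1776 without background correction, 1577 with an offset of 50, 1325 with detection on all arrays, 1777 in the authors' values, 1625 with the replicate block, 1529 with the trended prior, and 372 to 468 without 25 nM array 4, 5 or 6 or 71.25 nM array 7 or 9.

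Same-numbered samples of different groups correlated from -0.29 to 0.16 in their deviations over 18 pairs, with 2 over 0.1, so the numbers were not taken to pair samples; with the replicate block, on the authors' values, calls against control numbered 6 higher for 25 nM (30.6% of all genes called), 4 higher for 71.25 nM (41.3%), and 4 higher and 1 lower for resistant cells (48.0%), where NFKB1 was called lower at -0.23 (adjusted p = 0.0144). Under the block 3 were lower between doses (10.9% of all genes), and 8 were called across groups (54.5%). The block by slide was not run, because the columns name no slide.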
